A study of Mus musculus with 17 samples.

Results

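Matrix metalloproteinases (Mmps) and their tissue inhibitors (Timps) were followed across mammary tumors of mice that carry the transcription factor CUX1 as a transgene. The genes were 7 Mmps, Mmp2, Mmp3, Mmp7, Mmp9, Mmp11, Mmp13 and Mmp14, and 3 inhibitors, Timp1, Timp2 and Timp3. They were found on the arrays by gene name and by RefSeq accession, which gave 14 probes for 10 genes out of 41174 probes for 28786 genes. The 17 tumors came from FVB mice expressing the p75 (9 tumors) or the p110 (8 tumors) CUX1 isoform from the mouse mammary tumor virus promoter, which is active in mammary epithelium. Tumor epithelial cells were cut out of frozen sections by laser, and their RNA was amplified and hybridized on 2-color arrays against an amplified universal mouse reference RNA, with the dyes swapped between the arrays of a tumor. By the histology in the sample labels, 9 were solid carcinomas (6 p110 and 3 p75), 4 were adenosquamous carcinomas (all p75), 2 were adenomyoepitheliomas, 1 was an adenocarcinoma and 1 was an adenoma. The study's own list of types does not name p110-121, which is labelled a solid carcinoma. The study also drew 3 clusters from the expression of Wnt genes on these same arrays, with 5 high-Wnt tumors (p75-47, p75-80, p75-94, p110-225 and p110-374), 5 medium-Wnt tumors (p75-90, p75-129, p75-216, p110-98 and p110-121) and 7 low-Wnt tumors (p75-101, p75-150, p75-534, p110-143, p110-314, p110-360 and p110-416). Each name joins the transgene and the number of the mouse. The ages of the mice are not given in the sources used here, no normal mammary gland was analysed here, and each tumor is a single animal.

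Mmps are zinc-dependent proteases that cut proteins of the extracellular matrix and of the cell surface, and they are made as inactive proenzymes. Timps bind the active site of Mmps and block it. In the mammary gland and its tumors, many Mmps (Mmp2, Mmp3, Mmp11, Mmp13) are made largely by fibroblasts of the stroma, Mmp9 often by leukocytes, whereas Mmp7, or matrilysin, is a protease of epithelial cells. Mmp7 and Mmp14 have both been described as targets of the Wnt/β-catenin pathway, whose transcription factors are the TCF/LEF proteins. Mmp14 is held in the cell membrane and, together with Timp2, activates the Mmp2 proenzyme.

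Values are log2 ratios of tumor over reference from the authors' table, 1 per tumor. A gene is called measured in a tumor where the software called its tumor color well above background on all arrays of the tumor. The tumor color was above background for 20.9% to 65.0% of the probes per tumor, and the reference color for 41.1% to 64.8%. All p75 tumors were scanned in 1 year and all p110 tumors in another, so transgene and scan year cannot be told apart. One solid carcinoma, p110-121, went against its label as epithelium. Its mean over 4 epithelial markers (Epcam, Cdh1, Krt8 and Krt18) was -2.41, against 0.61 to 2.36 in the other 16 tumors, and its mean over 6 macrophage markers was 4.13, against -1.08 to 1.02. It was kept, and in the comparisons by histology and by transgene the values of some members are also given without it.

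The probes and promoters behind the results are shown first. The single Mmp7 probe on the array, the brightest Mmp9 and Timp1 probes and the second Mmp14 probe were 60 bases each. On the mm7 build of the array design they lie at chr9:7695434-7695493 (Mmp7), chr2:164695457-164695516 (Mmp9), chr14:49307013-49307072 (Mmp14) and chrX:19307699-19307758 (Timp1).
Mmp7: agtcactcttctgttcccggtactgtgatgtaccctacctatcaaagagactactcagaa
Mmp9: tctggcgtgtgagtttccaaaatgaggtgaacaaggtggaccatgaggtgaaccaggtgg
Mmp14: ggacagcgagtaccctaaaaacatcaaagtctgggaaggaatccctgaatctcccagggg
Timp1: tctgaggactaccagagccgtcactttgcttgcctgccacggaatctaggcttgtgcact

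RefSeq promoters (GRCm38.p6) were at hand for 8 of the 10 genes, with 9 start sites in all, and none was used for Mmp2 and Mmp9. The 250 bases before each start were searched on both strands for 2 motifs. The first was the TCF/LEF core, written CTTTGA or CTTTGT, which occurs in 27.6% of the 32851 RefSeq promoter windows of that length. The second was the AP-1 site TGAGTCA, bound by Fos and Jun proteins, which occurs in 4.5% of them. The AP-1 letters were found before 3 of the 9 member starts, those of Mmp3, Mmp13 and the upstream start of Mmp7, at positions -46, -35 and -63 relative to the start. TCF/LEF letters were found in 2 of the 9 windows, 1 match before Timp1 and 2 matches before the downstream start of Mmp7, a window that follows the upstream start. The Mmp14 window held neither motif. The 4 windows below are shown because Mmp7 and Mmp14 are the genes linked to Wnt and Mmp3 and Mmp13 share the AP-1 letters with Mmp7, and capitals mark the motif. They are on the plus strand, at chr9:7691840-7692089 (Mmp7), chr9:7445572-7445821 (Mmp3), chr9:7272264-7272513 (Mmp13) and chr14:54431348-54431597 (Mmp14).
Mmp7: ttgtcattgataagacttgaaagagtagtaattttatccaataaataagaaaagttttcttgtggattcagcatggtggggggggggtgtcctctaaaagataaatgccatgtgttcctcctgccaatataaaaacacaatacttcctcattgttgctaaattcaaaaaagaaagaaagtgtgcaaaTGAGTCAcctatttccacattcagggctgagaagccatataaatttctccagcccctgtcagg
Mmp3: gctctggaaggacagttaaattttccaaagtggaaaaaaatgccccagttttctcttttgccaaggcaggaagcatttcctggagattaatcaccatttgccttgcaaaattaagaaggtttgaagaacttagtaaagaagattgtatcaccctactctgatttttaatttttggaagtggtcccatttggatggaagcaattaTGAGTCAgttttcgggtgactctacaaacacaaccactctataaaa
Mmp13: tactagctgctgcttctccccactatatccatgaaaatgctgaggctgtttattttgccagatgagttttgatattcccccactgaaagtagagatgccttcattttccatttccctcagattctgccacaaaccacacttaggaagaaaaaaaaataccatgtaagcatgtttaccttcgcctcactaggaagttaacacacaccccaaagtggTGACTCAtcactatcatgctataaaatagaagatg
Mmp14: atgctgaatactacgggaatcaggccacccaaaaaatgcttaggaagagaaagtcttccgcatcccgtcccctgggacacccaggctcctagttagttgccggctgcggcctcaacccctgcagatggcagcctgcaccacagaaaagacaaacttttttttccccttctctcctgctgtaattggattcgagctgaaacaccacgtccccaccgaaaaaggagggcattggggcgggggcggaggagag

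Mmp7 was high in 4 tumors and near 0 in the other 13. It was 4.68 in p75-80, 4.20 in p75-94, 3.74 in p75-47 and 3.70 in p110-416. In the other 13 tumors it lay between -0.17 and 0.56, and in 12 of these it was not measured, so those values are limits of detection and not levels. The reference color was not above background for the Mmp7 probe on 33 of 38 arrays, so a ratio near 0 stands for little signal in both colors. The size of a high ratio may likewise rest on a reference near background. The gap between the 4 tumors and the rest was 3.14, and arrays of the same tumor differed most in p110-416 (SD 0.83).

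The 4 tumors with high Mmp7 crossed the study's groups. Of these, 3 tumors, p75-47, p75-80 and p75-94, were both adenosquamous and high-Wnt. The fourth, p110-416, was a solid carcinoma of the low-Wnt cluster. The adenosquamous carcinoma outside the high-Wnt cluster, p75-101, was at 0.54 and not measured, and the other high-Wnt tumors, p110-225 and p110-374, were at -0.06 and 0.07 and not measured. In these tumors only 24.7% and 20.9% of the probes were above background in the tumor color, against 34.7% to 54.5% in the 3 high-Wnt p75 tumors, so that a low level of Mmp7 could be missed more easily there.

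**Figure D1:**
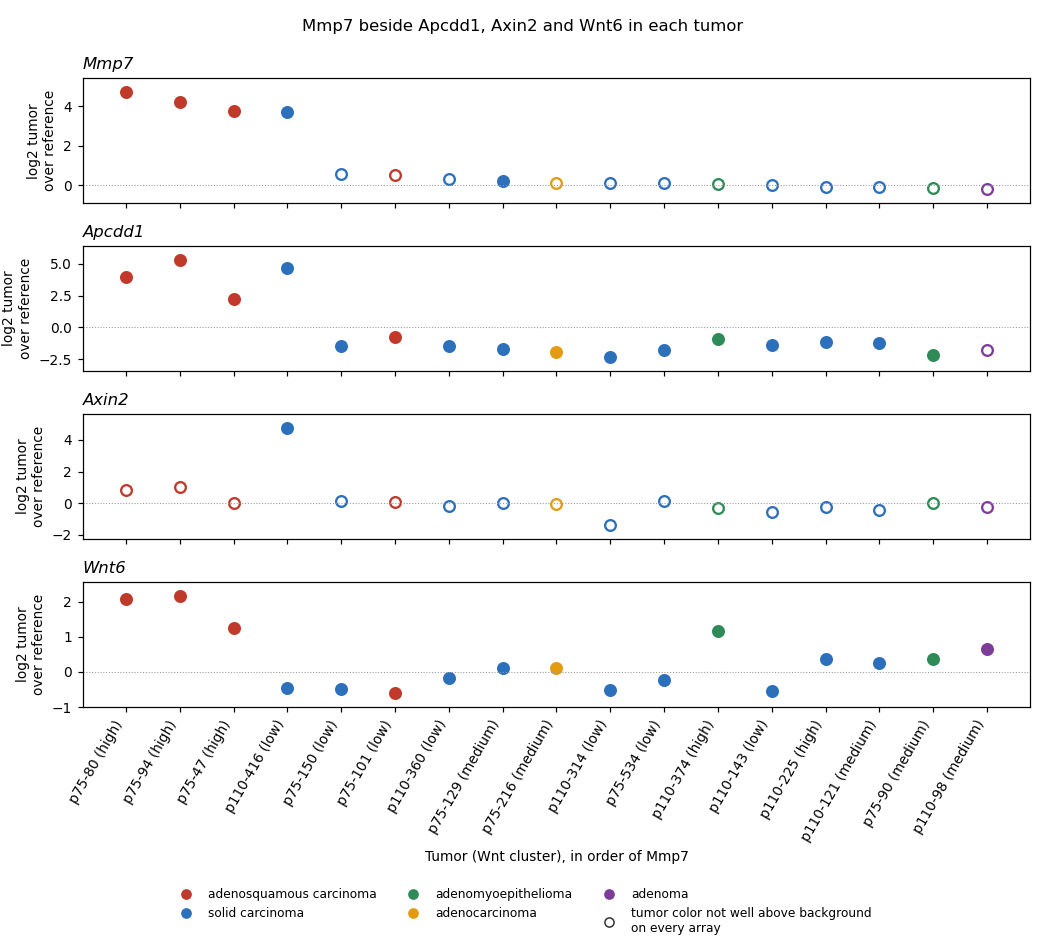
Log2 tumor over reference of Mmp7, Apcdd1, Axin2 and Wnt6 (1 panel each) in the 17 tumors, ordered from left to right by Mmp7, with the Wnt cluster in parentheses. Points are single tumors colored by histology, and open points are tumors in which the gene was not measured. The 4 tumors on the left have Mmp7 at 3.70 to 4.68 and Apcdd1 at 2.25 to 5.28, and p110-416 is the tumor with Axin2 measured.

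High-Wnt tumors had a mean Mmp7 of 2.53 ± 2.32 (SD, n = 5) and low-Wnt tumors one of 0.76 ± 1.31 (SD, n = 7). The difference of 1.76 (SE 0.85) did not pass limma's test over all genes (adjusted p = 0.435), and the exact two-sided permutation test over the 792 splits of these tumors gave p = 0.162. The 2 groups overlapped because of p110-416 on the low side and of p110-225 and p110-374 on the high side. Within p75 tumors the 3 high-Wnt tumors (3.74 to 4.68) stood above the 3 low-Wnt tumors (0.11 to 0.56) by 3.81 (SE 0.25, limma's adjusted p = 0.00703), where 0.0347% of all genes were called. Each of these 3 low-Wnt tumors was above background on only 1 of its 2 arrays, so the difference is one from values near background and its SE and p rest on them. The 3 medium-Wnt p75 tumors also entered the spread, at -0.15 (p75-90), 0.22 (p75-129) and 0.14 (p75-216), with Mmp7 measured only in p75-129. Those 3 high-Wnt tumors are all adenosquamous and 1 of the 3 low-Wnt tumors is, so cluster and histology cannot be told apart there. Within p110 tumors the difference was -1.03 (SE 1.07, adjusted p = 0.7), and it was -0.14 (SE 0.12, adjusted p = 0.677) without p110-416, with none of the remaining p110 values measured. The test of the difference between the transgenes (4.84 log2 units, limma's unadjusted p = 0.000726) missed the threshold over all genes (adjusted p = 0.0906). Without p110-416 it was 3.95 (adjusted p = 0.00152, where 0.0208% of all genes were called), again against values near background, and this omission was chosen after seeing the data.

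By histology, Mmp7 was 3.29 ± 1.88 (SD, n = 4) in adenosquamous and 0.55 ± 1.20 (SD, n = 9) in solid carcinomas. It was measured in 3 of 4 and in 2 of 9 of them. The difference of 2.75 (SE 0.78) had an exact permutation p of 0.0042 over 715 splits, but did not pass limma's test over all genes (adjusted p = 0.853). Leaving out p75-101 gave 3.66 (adjusted p = 0.0744) and leaving out p110-416 gave 3.14 (adjusted p = 0.517). Without p110-121 it was 2.67 (adjusted p = 0.862), and with Feature Extraction signals it was 4.52 (SE 1.31, limma's adjusted p = 0.872). The mean over 6 markers of squamous cells was 2.36 in p75-80 and 1.14 in p75-94, with 5 of the 6 measured in each. It was -0.01 in p75-47 and 0.13 in p75-101 (1 and 2 measured), within the -0.18 to 0.34 of the solid carcinomas, of which p110-416 had -0.06 (2 measured). The mean over 4 neutrophil markers was 3.20 to 3.45 in p75-47, p75-80 and p75-94. It was 1.30 in p110-416, below p110-143 (1.60) and p110-225 (1.42), where Mmp7 was not measured. In p75-47, p75-80 and p75-94, S100a8 was 5.28, 3.95 and 5.41, and S100a9 was 6.40, 9.02 and 7.84. Mpo was 1.97, 0.71 and -0.45 in the same order, and Elane was measured in no tumor. The part of either list in the Mmp7 values was not tested.

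The gene whose pattern was most like that of Mmp7 was Apcdd1, which codes for a membrane protein that inhibits Wnt signaling (Pearson r = 0.96 over 17 tumors, the highest of 11379 genes measured in at least 9 tumors). Apcdd1 was 3.94 in p75-80, 5.28 in p75-94, 2.25 in p75-47 and 4.70 in p110-416, and between -2.32 and -0.78 in the other 13 tumors. The next in order were LOC665123 (0.94), Rhox4e (0.91), BC039632 (0.91) and Padi4 (0.89), an enzyme that turns arginine into citrulline. Rhox4e belongs to a family of near-identical copies that a probe may not separate. These r values describe a split of 4 tumors against 13 and share arrays, reference and amplification.

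Axin2, a feedback inhibitor widely used as a readout of β-catenin, was measured in 1 tumor, p110-416, at 4.73. It was 0.00, 0.81 and 1.01 in p75-47, p75-80 and p75-94 without being measured there, and -1.36 to 0.17 elsewhere. Wnt6, a Wnt ligand measured in all 17 tumors, was 2.15, 2.06 and 1.25 in p75-94, p75-80 and p75-47, and -0.46 in p110-416. The tumors with high Mmp7 thus held both the highest Wnt6 ratios and a tumor with Wnt6 below the reference. Because Mmp7 fell into separate sets of 4 and 13 tumors, with 12 of the 13 not measured, no relation is read from its correlations with Axin2, Wnt6 and fibroblast markers over all tumors, and within the sets they cannot be tested.

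Mmp14 was measured in all 17 tumors by its brightest probe. Its values in high-Wnt tumors were 1.40 (p75-94), 1.16 (p110-225), 0.97 (p110-374), 0.46 (p75-80) and -1.37 (p75-47). In the 7 low-Wnt tumors it ranged from -3.03 (p110-416) through a median of -0.60 to 0.49 (p110-143). Of the 5 high-Wnt tumors 3 lay above every low-Wnt tumor, and p75-47 lay below 6 of the 7. Its high-Wnt mean was 0.52 ± 1.11 (SD, n = 5), against -0.96 ± 1.09 (SD, n = 7) for the low-Wnt cluster. The difference of 1.49 (SE 0.68, exact permutation p = 0.0417) missed the threshold of limma's test over all genes (adjusted p = 0.406). The second probe gave 0.98 (SE 0.35, adjusted p = 0.276). The difference was 1.14 without p110-416, 1.96 without p75-47, 0.95 within p75 and 2.16 within p110 tumors, and 0.57 when arrays were centered on their median without a loess curve. Between adenosquamous and solid carcinomas the probes differed in sign, 0.55 (SE 0.79) and -0.16 (SE 0.37), and the first was 0.01 without p75-94.

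The 5 genes most like Mmp14 over the 17 tumors were Bmp1, a protease that processes procollagen (r = 0.90), the intermediate filament gene Vim (0.84), the matrix gene Fbln2 (0.84), Fkbp10, a chaperone of collagen (0.83), and Serpinf1 (0.82). In p110-416 and p75-129, the tumors with the lowest Mmp14, these genes were low too, and without both tumors, an omission chosen after seeing the data, r was 0.83, 0.70, 0.79, 0.75 and 0.72 in the same order. With its partners, Mmp14 gave r = 0.51 with Mmp2 (rho = 0.50, permutation p = 0.0351 and 0.0417, adjusted p = 0.0702 over the 18 relations computed) and r = 0.44 with Timp2 (rho = 0.42, adjusted p = 0.117). Without p75-129 and p110-416, the farthest tumors on the Mmp14 scale, the first fell to r = 0.14 and the second to 0.32. By transgene the first was 0.67 in p75 and 0.48 in p110 tumors (exact permutation p = 0.0465 and 0.222). The second was 0.07 in p75 and 0.74 in p110 tumors (exact permutation p = 0.86 and 0.0348). Mmp2 and Timp2 gave r = 0.27 (rho = 0.27, adjusted p = 0.32). With arrays scaled all 3 relations passed the threshold, at 0.69 for Mmp14 with Mmp2, 0.60 for Mmp14 with Timp2 and 0.58 for Mmp2 with Timp2 (adjusted p = 0.0109, 0.0197 and 0.0223), and with median centering none did (0.42, 0.08 and 0.06). The first also passed without background correction (0.55) and without p110-143 (0.61) or p110-360 (0.66), and the second without p75-94 (0.63). With Wnt6, Mmp14 gave r = 0.47 (rho = 0.46, adjusted p = 0.0869), 0.55 in p75 and 0.56 in p110 tumors (exact permutation p = 0.128 and 0.15, n = 9 and 8), and it passed the threshold without p75-47 (0.56, adjusted p = 0.0486). With Axin2 it gave r = -0.43 (rho = -0.31, adjusted p = 0.132) and 0.12 without p110-416, the 1 tumor where Axin2 was measured, so that no relation can be read from it.

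**Figure D2:**
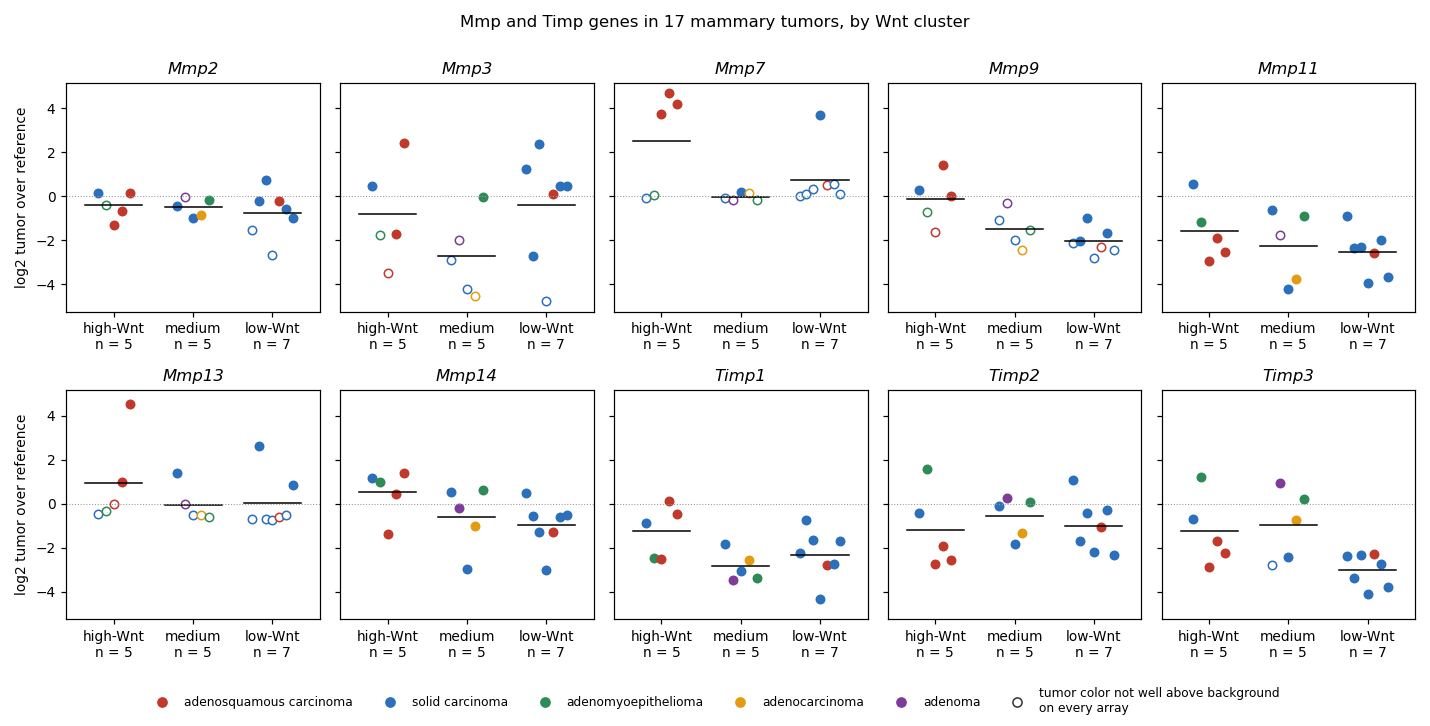
Log2 tumor over reference of the 10 genes (1 panel each) by Wnt cluster (high, medium and low). Points are single tumors colored by histology, open points are tumors in which the gene was not measured, and bars are means. High-Wnt and low-Wnt tumors overlap in each panel, and the means lie furthest apart for Mmp9 (1.92), Mmp7 (1.76), Timp3 (1.74) and Mmp14 (1.49).

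None of the 10 genes passed limma's test between high-Wnt and low-Wnt tumors, where 0.184% of the 28786 genes did (53 genes). At an unadjusted p under 0.05 there were 3 members (Mmp9, Mmp14 and Timp3), against 11.9% of all genes. The difference was above 0 for 8 of the 10, against 54.6% of all genes, and the members' median was 1.0 against 0.01 over all genes. With arrays centered on their median without a loess curve, 7 of 10 were above 0 and the members' median was 0.36, against -0.03 over all genes. No member had groups without overlap, against 1.65% of all genes.

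Mmp9, a gelatinase, had the smallest p of the members in this comparison. It was 1.45 in p75-80, 0.28 in p110-225, 0.00 in p75-94, -0.72 in p110-374 and -1.63 in p75-47. In low-Wnt tumors it ranged from -2.81 (p110-416) through a median of -2.10 to -0.96 (p110-360). All but p75-47 of the high-Wnt tumors lay above every low-Wnt tumor. The difference was 1.92 (SE 0.48, exact permutation p = 0.00253), with limma's adjusted p = 0.111, and it ranged from 1.52 without p75-80 to 2.29 without p75-47 (adjusted p = 0.0655). It was 2.07 within p75 and 1.76 within p110 tumors, and 1.27 with median centering. Mmp9 was measured in 3 of 5 high-Wnt and 3 of 7 low-Wnt tumors, with p75-47, p110-374 and p110-416 among those where it was not. The second probe, printed in 10 spots, was measured in 1 tumor and gave 0.23 (SE 0.06, adjusted p = 0.128).

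Markers of neutrophils, a source of Mmp9, were also higher in some high-Wnt tumors, with 0 of 4 called. Their mean over 4 genes was -0.12 to 3.45 in high-Wnt and -0.44 to 1.60 in low-Wnt tumors, with a median difference of 1.92. S100a8 and S100a9, which squamous epithelium also makes, reached 5.41 and 9.02. Mpo reached 1.97 in p75-47, and was 0.71 in p75-80 and -0.45 in p75-94. Elane was measured in no tumor and no probe was matched to Ly6g. The mean was 3.43 in p75-47, where Mmp9 was lowest of the high-Wnt tumors, and 3.45 in p75-80, where it was highest. Markers of basal cells had a median difference of 1.70 (2.87 to 4.96 in high-Wnt and -0.64 to 3.57 in low-Wnt tumors, 0 of 6 called). The part of either list in the Mmp9 values was not tested. In RNA pooled from many microdissected cells, fewer cells of a type and less RNA per cell cannot be told apart. Across tumors Mmp9 gave r = 0.62 with Timp1, an inhibitor that binds its proenzyme (rho = 0.45, permutation p = 0.00738 and 0.0725, adjusted p = 0.0221 for r), which was 0.83 in p75 and 0.35 in p110 tumors (exact permutation p = 0.0185 and 0.392) and fell to 0.34 without p75-80 and p110-225. The call was lost without p75-80 (r = 0.46, adjusted p = 0.113), p75-94 (0.58, adjusted p = 0.051) or p110-416 (0.56, adjusted p = 0.0873), and over the 6 tumors in which Mmp9 was measured r was 0.68 (exact permutation p = 0.129).

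The other Mmps spread widely over the tumors. Mmp3, or stromelysin 1, was measured in 10 tumors, from -2.71 in p110-314 to 2.39 in p110-360 and 2.45 in p75-94. In the other 7 its ratios, down to -4.76 in p110-416, are limits of detection. Mmp2, a gelatinase, was measured in 13 tumors, from -1.30 (p75-47) to 0.73 (p110-360), and had its lowest ratio, -2.65, in p110-416, where it was not measured. Mmp11, or stromelysin 3, was below the reference in 16 of 17 tumors, from -4.20 (p75-129) to -0.61 (p110-121), and at 0.58 in p110-225. Mmp13, a collagenase, was measured in 5 tumors, at 4.51 in p75-94, 2.61 in p110-314, 1.38 in p110-121, 0.97 in p75-80 and 0.84 in p75-534, and lay between -0.75 and 0.00 in the others. None of these 4 genes differed between high-Wnt and low-Wnt tumors by limma's test, with differences of -0.40 (SE 1.27) for Mmp3, 0.37 (SE 0.46) for Mmp2, 0.94 (SE 0.75) for Mmp11 and 0.90 (SE 0.82) for Mmp13. The 95% interval for Mmp3, -3.10 to 2.29, left room for large differences of either sign. The Mmp13 difference fell to 0.01 without p75-94, that of Mmp11 to 0.40 without p110-225 and to 0.09 with median centering, and that of Mmp2 to 0.05 without p110-416 and to -0.27 with median centering. That of Mmp3 was -1.22 without p75-94, 0.27 without p75-47 and -1.21 with median centering. The Mmp11 difference was 0.29 (SE 0.87) within p75 and 2.07 (SE 0.91) within p110 tumors, and that of Mmp13 was 1.90 (SE 1.07) and -0.51 (SE 1.06).

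Fibroblast markers were present in these microdissected samples and varied between tumors. The mean over 9 markers (among them Col1a1, Pdgfra and Dcn) ran from -3.67 in p110-416 and -2.10 in p75-129 to 0.96 in p110-225, and 6 to 9 of the 9 markers were measured in each tumor. Mmp2 followed this mean with r = 0.85 (rho = 0.75, permutation p = 5e-05 and 0.00074, adjusted p = 0.0009 and 0.00666 over 18 relations), 0.71 in p75 and 0.90 in p110 tumors (exact permutation p = 0.0345 and 0.00397), and 0.71 without p110-416 and p75-129. Over the 13 tumors in which Mmp2 was measured it was 0.78 (rho = 0.76, permutation p = 0.00154 and 0.00391). Mmp3 gave r = 0.72 over all tumors (rho = 0.75, adjusted p = 0.00333 and 0.00666), 0.88 in p75 and 0.66 in p110 tumors (exact permutation p = 0.00312 and 0.0603), and 0.61 without these tumors. Over the 10 tumors in which Mmp3 was measured r was 0.22 (rho = 0.38, permutation p = 0.555 and 0.28), so that the relation rests on the 7 ratios that are limits of detection. These values over measured tumors, 4 relations in all, were chosen after seeing the data.

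Timp1 gave r = 0.64 (rho = 0.55, permutation p = 0.0058 and 0.0252, adjusted p = 0.0221 and 0.113), 0.39 in p75 and 0.84 in p110 tumors, and 0.43 without p110-416 and p75-129, with its call lost without p110-416 alone (0.49, adjusted p = 0.127). Mmp14 gave r = 0.66 (rho = 0.44, permutation p = 0.00379 and 0.076, adjusted p = 0.0221 and 0.164), which fell to 0.26 without these tumors, so that it rests on them, and lost its call without p110-416 alone (0.50, adjusted p = 0.127) and with the mean of all probes (0.51, adjusted p = 0.0584). For Mmp11 it was r = 0.58 (rho = 0.39, permutation p = 0.0127 and 0.12, adjusted p = 0.0286 and 0.196), which fell to 0.36 and lost its call without p75-129, p110-225 or p110-416 (0.52, 0.48 and 0.51), with Feature Extraction signals (0.54), with median centering (0.44) and with the mean of all probes (0.55). Mmp9 (r = 0.50, rho = 0.43, adjusted p = 0.0771) missed the threshold, but passed it in 6 of 26 recomputations, at 0.56 without background correction, 0.60 with Feature Extraction signals or with tumor RNA in Cy5 only, 0.58 with arrays scaled and 0.57 without p75-80 or without p75-101. It was lowest, at 0.39, with Cy3 only and without p110-416, and was 0.13 over the 6 tumors in which Mmp9 was measured (exact permutation p = 0.79). By transgene it was 0.27 in p75 and 0.75 in p110 tumors (exact permutation p = 0.51 and 0.024). Timp2 (0.29), Timp3 (0.27) and Mmp13 (0.24) lay lower (adjusted p = 0.307 to 0.32), with Timp2 at 0.52 with arrays scaled (adjusted p = 0.0463). Between high-Wnt and low-Wnt tumors the fibroblast mean overlapped, -1.72 to 0.96 against -3.67 to 0.48, with 0 of 9 markers called and a median difference of 0.51. Its part in the Mmp and Timp differences was not tested.

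**Figure D3:**
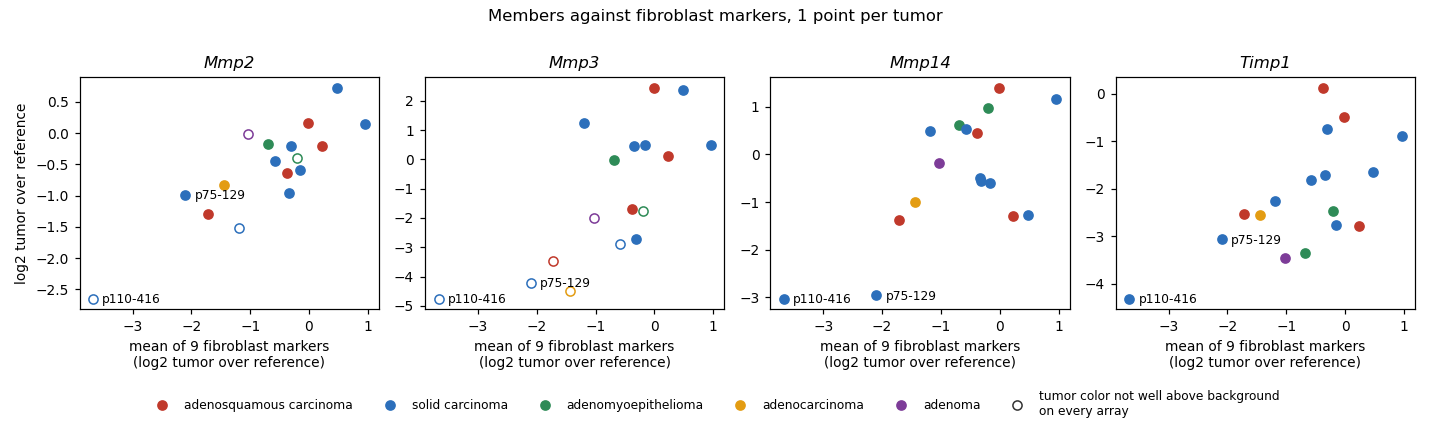
Log2 tumor over reference of Mmp2, Mmp3, Mmp14 and Timp1 (1 panel each) against the mean log2 ratio of 9 fibroblast markers. Each point is a tumor, colored by histology, and open points are tumors in which the gene was not measured. The points rise from left to right for Mmp2 (r = 0.85). For Mmp3 (r = 0.72) the lowest points are open, and p110-416 lies at the lower left of each panel.

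Timp1 and Timp2 were measured in all 17 and Timp3 in 16 tumors. Timp3 was dimmer, with a mean log2 tumor signal of 10.00 in high-Wnt and 8.27 in low-Wnt tumors, against 11.74 to 13.29 for Timp1 and Timp2. The Timp1 probe repeated least well, with a median SD of 0.79 between arrays of a tumor and an SD of 1.17 between tumors. For the other members that median SD was 0.20 to 0.46. Timp1 lay below the reference in 16 of 17 tumors, from -4.31 (p110-416) to -0.49 (p75-94), and at 0.13 in p75-80. Its 2 other probes were measured in 6 and 5 tumors. Timp1 differed between high-Wnt and low-Wnt tumors by 1.06 (SE 0.59, adjusted p = 0.516), 0.72 (SE 0.23, adjusted p = 0.217) and 0.76 (SE 0.25, adjusted p = 0.23) by its 3 probes, none of them past the threshold, and by 0.15 for the first with median centering.

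Timp3, which is bound to the matrix, was above the reference in 3 tumors, none of them solid or adenosquamous. It was 1.22 and 0.21 in the adenomyoepitheliomas p110-374 and p75-90, 0.92 in the adenoma p110-98 and -0.74 in the adenocarcinoma p75-216. Among the other 13 tumors it was -0.69 in p110-225 and between -4.12 and -1.71 in the remaining 12. The tumors with high Timp3 were also among those with the fewest probes above background in the tumor color, 20.9% in p110-374, 23.1% in p110-98 and 31.1% in p75-90, with p110-225 at 24.7% and the other 13 tumors at 31.2% to 65.0%. The mean over 6 luminal markers was also highest in these 3 tumors, 3.92 in p75-90, 3.77 in p110-374 and 3.76 in p110-98, against -2.32 to 3.30 in the other 14, and that over 6 basal markers was 4.20 to 4.96 in them, with p75-80 at 4.66. The part of these measures in the Timp3 values was not tested. Timp2 had its highest value, 1.59, in p110-374 and was 0.28 in p110-98 and 0.10 in p75-90, with the solid carcinoma p110-143 at 1.06 between them. With 1 or 2 tumors of a type these are single values without a test. Between high-Wnt and low-Wnt tumors Timp3 differed by 1.74 (SE 0.74, exact permutation p = 0.0164), with limma's adjusted p = 0.355. It was -2.86, -2.24, -1.71, -0.69 and 1.22 in the high-Wnt tumors and -4.12 to -2.27 in the low-Wnt tumors, so that 4 of 5 high-Wnt tumors lay above all 7 others. Without p110-374 the difference was 1.13, with median centering 0.85, and it was 0.66 within p75 and 3.32 within p110 tumors. Timp2 differed by -0.22 (SE 0.76) and took the other sign without p75-47 (0.17) or with transgene as a block (0.02), and was -1.15 with median centering and -0.92 without p110-374. It was -1.19 (SE 0.64) within p75 and 1.41 (SE 1.02) within p110 tumors.

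**Figure D4:**
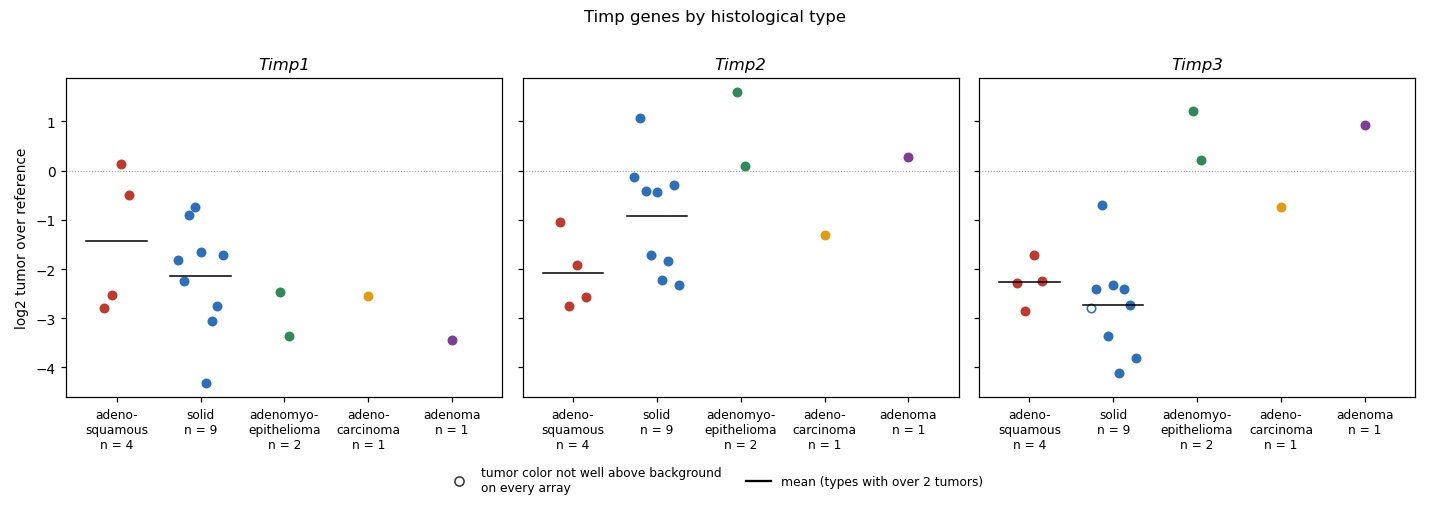
Log2 tumor over reference of Timp1, Timp2 and Timp3 by histological type. Points are single tumors, the open point is a tumor in which the gene was not measured, and bars are means of types with over 2 tumors. Timp3 was above the reference in both adenomyoepitheliomas (1.22 and 0.21) and in the adenoma (0.92), and Timp1 was below it in these 3 tumors.

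Between adenosquamous and solid carcinomas no gene of the array was called by limma (0% of 28786, 0 of the 10 members), whereas 1588 genes (5.52%) had an unadjusted p under 0.05, among them 1 member, Mmp7. The difference was above 0 for 8 of 10 members against 48.0% of all genes, with a median of 0.51 against -0.01 (0.86 with median centering), and no member had groups without overlap, against 0.410% of all genes. After Mmp7 the smallest p was that of Timp2. Timp2 was -2.75, -2.56, -1.92 and -1.05 in the adenosquamous and -2.33 to 1.06 in the solid carcinomas (median -0.43), a difference of -1.15 (SE 0.61, exact permutation p = 0.103, limma's adjusted p = 0.871). All 4 adenosquamous tumors are p75, and the difference was -0.50 (SE 0.70) with transgene as a block and -0.58 (SE 0.61) within p75 tumors. Mmp9 differed by 1.01 (SE 0.66) and fell to 0.32 without p75-80, and Mmp13 differed by 1.09 (SE 0.87) and fell to -0.01 without p75-94. The 6 other members differed by -0.32 (Mmp11) to 0.71 (Timp1), with exact permutation p from 0.354 to 0.782, and Mmp11 took the other sign within p75 tumors (0.82). Without p75-80 the difference was 0.19 for Timp1 and 0.28, in place of 0.46, for Timp3. Without p110-121 the values were 0.71 for Mmp14, 1.09 for Mmp9 and -1.05 for Timp2, and no member changed its sign.

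Between p75 and p110 tumors 0.459% of all genes were called (132 genes) and 0 of the 10 members. At an unadjusted p under 0.05 there was 1 member, Timp2, against 14.0% of all genes, and the difference was above 0 for 4 of 10 members against 50.7% of all genes, with a median of -0.12. With median centering 9 of 10 were above 0 after rounding, with Timp2 at 0.00, and the median was 0.85, against 0.07 over all genes. No member had groups without overlap, against 0.195% of all genes. Timp2 ranged from -2.75 (p75-47) through a median of -1.85 to 0.10 (p75-90) in p75 tumors and from -2.21 (p110-416) through -0.27 to 1.59 (p110-374) in p110 tumors. The difference was -1.31 (SE 0.53, exact permutation p = 0.0337, limma's adjusted p = 0.268) and was 0.00 when arrays were centered on their median without a loess curve. Mmp11 differed by -1.16 (SE 0.56, exact permutation p = 0.0656, adjusted p = 0.371) and by 0.01 with median centering. The other 8 members had exact permutation p from 0.183 (Mmp7, 1.07) to 0.937 (Mmp3, 0.09). The Mmp7 difference was 0.68 without p75-80 and 2.18 with Feature Extraction signals. Mmp14, at -0.35 (SE 0.63), and Timp3, at -0.37 (SE 0.75), took the other sign with median centering, at 0.94 and 0.88. Without p110-121 Timp2 differed by -1.29 and Mmp11 by -1.03, and of the members only Mmp3 took the other sign, at -0.14.

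**Figure D5:**
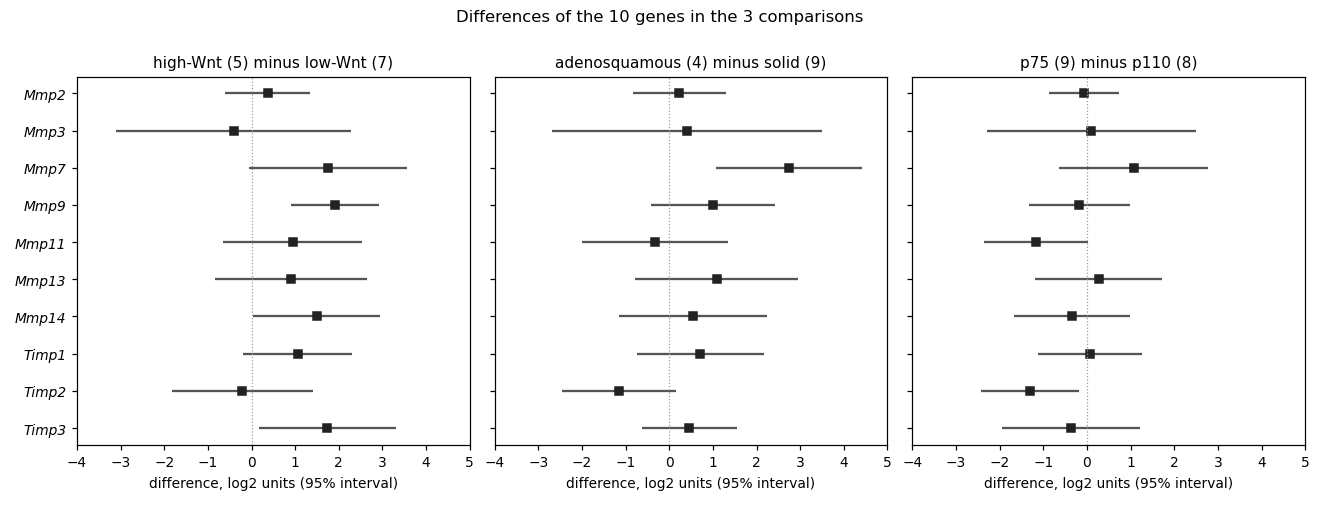
Differences of the 10 genes in log2 units for high-Wnt minus low-Wnt, adenosquamous minus solid and p75 minus p110 tumors, with the number of tumors in parentheses. Squares are limma estimates and lines their unadjusted 95% intervals. The intervals for Mmp9, Mmp14 and Timp3 in the first panel, Mmp7 in the second and Timp2 in the third lie on 1 side of 0, and no difference passed the test over all genes.

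Of the wider protease system, 6 lists with 55 genes on the array were read from the same fits, and 0 of the 55 were called in any of the 3 comparisons. Between high-Wnt and low-Wnt tumors the median difference was 0.05 for 14 other Mmp genes, -0.16 for 3 further inhibitors (Timp4, Reck and A2m), 0.03 for 12 Adam and Adamts proteases, 0.55 for 7 genes of the plasminogen system, 0.15 for 8 activators and partners of Mmps and 0.52 for 11 collagens and other matrix proteins, against 0.01 over all genes. The plasminogen system, whose plasmin activates several proenzymes of Mmps, had all 7 differences above 0, against 54.6% of all genes. Of these, Serpine2 was measured in 0, Plg and Plau in 1 and Serpinb2 in 2 tumors. The difference was 0.82 (SE 0.53) for the activator gene Plat, measured in 17 tumors, and 1.03 (SE 0.59) for the receptor gene Plaur, measured in 15. The smallest p of the 55 was that of the activator gene Plau, at 0.55 (SE 0.11, limma's adjusted p = 0.0603), which was measured in 1 tumor. Of the other Mmp genes, Mmp10, or stromelysin 2, had the largest differences, 1.79 (SE 0.75, adjusted p = 0.35) by cluster and 2.12 (SE 0.76) by histology, and was measured in 4 tumors. The matrix genes had 10 of 11 differences above 0. In the other comparisons the list medians ran from -0.24 to 0.32 and from -0.24 to 0.00. As a check of the clusters, of the Wnt readouts Wnt6 rose by 1.83 (SE 0.24, adjusted p = 0.012) and Lef1, measured in 3 tumors, by 1.90 (SE 0.31, adjusted p = 0.0299) in high-Wnt tumors, whereas Axin2 differed by -0.18 (SE 0.75). Both calls were lost without background correction, with median centering and with arrays scaled, where 0 genes were called. Wnt6 belongs to the Wnt genes that drew the clusters and is no separate evidence.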

How the data were processed

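Laser-microdissected epithelium of 17 tumors was hybridized on 38 Agilent 2-color arrays (45018 spots). The authors extracted spot intensity with Feature Extraction 9.5.3.1 (array design on mm7) and normalized it with limma. Their deposited table holds 1 log2 ratio per spot and tumor. Recomputing it from the deposited intensity columns (normexp with offset 50, loess, dye-turned average) differed by at most 4.98e-08, which gave the direction as tumor over reference. Repeated spots were averaged, and each gene was represented by its brightest probe, leaving 28786 genes. Of 41174 probes 55.7% matched RefSeq names. limma 3.58.1 (R 4.3.3) was fitted per grouping over all genes, with Benjamini-Hochberg adjustment and a threshold of 0.05, and was tested on simulated data. Single genes were also compared by exact two-sided permutation, and 18 correlations by 100000 permutations (scipy 1.17.1). Named genes were the members, the 5 genes most like Mmp7 and Mmp14, fixed lists and markers, and Plat, Plaur, Plau and Mmp10, picked after their values were seen. The members and lists were chosen with earlier results of these data known. The Wnt clusters are the study's and are not in the sample labels. Alternatives covered background correction, normalization, probes, dye, batch and each tumor left out. Leaving p110-416 out within p110 tumors was added after seeing the data. The tumor is the replicate: for each member the SD between tumors (0.78 to 2.34) was above the median SD between arrays of a tumor (0.20 to 0.79).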

Additional observations from a re-analysis of the deposited data

Results flagged for a closer look

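Of 70 combinations of a gene and a group of 4 to 9 tumors, tested for a tumor far from the rest, 4 stood out, where chance gives about 1 in 20. All but 1 of these are the same value, Mmp7 in p110-416, in groups that share tumors. Mmp7 in p110-416 was 3.70, the highest of the solid carcinomas (nearest 0.56, gap over range 0.83, n = 9), of the low-Wnt tumors (nearest 0.56, 0.85, n = 7) and of the p110 tumors (nearest 0.32, 0.87, n = 8). Mmp13 in p75-94 was 4.51, the highest of the p75 tumors (nearest 0.97, 0.69, n = 9).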

How the results depend on the processing

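Of 960 recomputed differences of the 10 genes, 894 kept direction and side of the threshold, 1 newly passed it (Mmp7 within p75 tumors, 3.81) and 65 changed sign. Of 466 recomputed correlations, 428 kept both, 20 lost and 15 gained the threshold and 3 changed sign. The causes were not tested.

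The 53 genes called between high-Wnt and low-Wnt tumors became 0 without background correction, with median centering or with arrays scaled, 6 with Feature Extraction signals, 7 and 9 from arrays with tumor RNA in Cy5 or in Cy3 alone, 118 with transgene as a block, 10 in p75 and 346 in p110 tumors alone, 0 in p110 tumors with p110-416 left out (chosen after seeing the data), 143 with the 2 groups alone and 22 with a trend and robust fit. Leaving out 1 tumor gave 8 (p110-374) to 129 (p75-216). The 0 genes between adenosquamous and solid carcinomas became 1 with Feature Extraction signals and 0 to 27 with 1 tumor left out (27 without p75-101). The 132 genes between p75 and p110 became 209 without background correction, 295 with Feature Extraction signals, 1200 with median centering, 57 with arrays scaled, 217 and 65 with Cy5 or Cy3 only, 0 in solid carcinomas alone and 295 with scan day as a random block, and 35 (without p75-47) to 1173 (without p110-314) with 1 tumor left out.

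Signs that changed between p75 and p110 were those of Mmp2 (0.34) and Mmp9 (0.05) with Feature Extraction signals, of Mmp2 (0.83), Mmp9 (0.63), Mmp11 (0.01), Mmp14 (0.94), Timp2 (0.00) and Timp3 (0.88) with median centering, of Mmp2 (0.01), Mmp9 (0.03), Mmp13 (-0.38) and Timp3 (0.23) with arrays scaled, of Timp1 (-0.10) with the mean of probes, of Mmp2 (0.00) and Mmp3 (-0.06) with Cy5 or Cy3 only, and of Mmp3 (-0.05), Mmp7 (-0.37), Mmp13 (-0.28) and Timp1 (-0.57) in solid carcinomas alone. By Wnt cluster they were Mmp2 with median centering (-0.27) and in p75 tumors (0.00), Timp2 with the transgene block (0.02), and in p110 tumors Mmp3 (0.33), Mmp7 (-1.03), Mmp13 (-0.51) and Timp2 (1.41), and there without p110-416 Mmp7 (-0.14), Mmp13 (-0.80), Timp1 (-0.14) and Timp2 (0.95). By histology Mmp11 changed with median centering (0.10), arrays scaled (0.13), the block (0.55) and in p75 tumors (0.82). With median centering the correlation of Timp3 with fibroblast markers went from 0.27 to -0.05, and that of Mmp7, from which no relation is read, from -0.30 to 0.00. The correlation of Mmp9 with Timp1 lost the threshold with Cy3 only (0.46).

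With 1 tumor left out, the range by Wnt cluster was -1.22 to 0.27 for Mmp3 and -0.92 to 0.17 for Timp2. By histology it was -0.02 to 0.49 for Mmp2, -0.64 to 1.34 for Mmp3, -0.58 to 0.02 for Mmp11 and -0.01 to 1.69 for Mmp13. Between p75 and p110 it was -0.37 to 0.12 for Mmp2, -0.41 to 0.61 for Mmp3, -0.53 to 0.04 for Mmp9, -0.24 to 0.62 for Mmp13, -0.23 to 0.28 for Timp1 and -0.71 to 0.05 for Timp3. The correlation of Mmp14 with Axin2 ran from -0.53 to 0.12. Mmp7, Mmp9 and Mmp13 were measured in 5, 6 and 5 of 17 tumors, so their low values rest near background. With slide as a random block 66, 0 and 117 genes were called in the 3 comparisons, and with scan day 71, 0 and 295. No paired analysis was made, because each tumor is a single animal and the labels name no pairs across groups. Some tumors of different groups shared a slide or a scan day, which were fitted only as these blocks.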
